A study of Mus musculus with 6 samples.

Results

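Long intergenic noncoding genes (lincRNAs) that were expressed in mouse aorta were examined in whole-vessel RNA sequencing of floxed controls and of mice that had lost Ogt in smooth muscle. A row of the deposited gene table was taken when its gene type was lincRNA, it did not lie on chromosome X or Y, and its counts summed to 600 or more over the 6 libraries. This rule took 43 of 4979 lincRNA rows outside chromosomes X and Y, in a table of 55487 genes, and 3680 of those lincRNA rows had 0 counts in all libraries. The sum used no contrast between the groups, but it was of raw counts, so libraries with larger totals weighed more in it. Knockout replicates 2 and 3 (17223643 and 18218385 counts) weighed most and control replicate 2 (3038782) least. Genes higher in the deeper libraries thus reached the threshold more easily. The effect of this on the signs of the members' fold changes was not tested. Because members were chosen by their summed counts, the levels below are a description and high levels are not a result. The 3 members with the smallest sums were Gm34934 (614 counts), Snhg6 (633) and A530017D24Rik (649), and the 3 lincRNA rows just short of the threshold were 9230112J17Rik (565), 4933404O12Rik (545) and BC043934 (535).

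The control group was aorta from mice carrying the floxed (LoxP) Ogt gene, and the knockout group was aorta from mice with an Ogt knockout restricted to smooth muscle cells (SMC), with 3 libraries each. The sample titles name SM22, another name of transgelin (Tagln), beside both groups. The labels do not give the age of the mice, the Cre line's form or the number of mice per library, so p-values measure the spread between these libraries, which may be technical. Ogt encodes O-GlcNAc transferase, which puts N-acetylglucosamine on serines and threonines of nuclear and cytoplasmic proteins. Levels are given below in CPM, counts scaled to library size with the trimmed mean of M values (TMM), and always in the order of replicates 1, 2 and 3. Ogt had 177.4, 183.2 and 150 CPM in the control libraries and 93.3, 73.5 and 70.9 CPM in the knockout libraries. The knockout libraries were all lower than the controls, with a log2 fold change of -1.10 ± 0.15 (SE, edgeR quasi-likelihood adjusted p = 0.0214).

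Long noncoding RNAs are transcripts, many of them spliced and polyadenylated like messenger RNAs, that are not known to be translated into a protein of usual length. Some stay in the nucleus and build or join nuclear bodies, some act in the cytoplasm by binding proteins or microRNAs, some serve mainly as host transcripts from which small nucleolar RNAs or microRNAs are cut, and for many no function is known. In smooth muscle the best known is Carmn, the host gene of the miR-143 and miR-145 cluster, which takes part in keeping the contractile state.

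Library totals ran from 3038782 counts in control replicate 2 to 18218385 in knockout replicate 3. Control replicate 2 stood apart in composition too: 10.2% of its counts were mitochondrial ribosomal RNA, where the other 5 libraries had 0.491% to 0.823%. In that library 21 of the 43 genes had under 50 counts, and the lowest, Gm13861, had 5. In the other libraries no member had under 63. Smooth muscle markers summed to 31340 to 37550 CPM in controls and 25660 to 30480 CPM in knockouts, and all 8 were expressed. These sums did not overlap between the groups. Of the 8, 1 passed the test as lower, Tagln (log2 fold change -1.14 ± 0.19, edgeR adjusted p = 0.0331), where 3.45% of all genes tested passed. Skeletal and cardiac muscle markers were at 19.3 to 31.4 CPM in controls and 82.8 to 93.1 CPM in knockouts, and brown adipocyte markers at 105.2 to 156.8 and 58.2 to 67.6 CPM. Of the former 2 of 6 tested passed the test as higher, and of the latter 2 of 4 as lower, where 3.45% of all genes tested passed. None of the 5 T and B cell markers passed the filter on low counts. Endothelial, fibroblast, macrophage, white adipocyte and Schwann or neuronal marker sums overlapped between the groups. The part of these cell types in the results below was not tested, and in bulk tissue fewer cells of a type and less RNA per cell cannot be told apart.

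The 43 genes together took 0.459% to 0.544% of all counts in 5 libraries and 1.88% in control replicate 2. Malat1 made up 55.4% of all their counts and Neat1 19.2%. Malat1, a nuclear RNA of the splicing speckles (chromosome 19, 5795690 to 5802672, GRCm38), had 2142, 18312 and 2061 CPM in controls and 2392, 3090 and 2311 CPM in knockouts. Control replicate 2 was thus 8.71 times the mean of the other 2 controls, and the remaining 5 libraries lay within a 1.5-fold range. The log2 fold change was -1.53 ± 0.90 (edgeR adjusted p = 0.366), and it was 0.31 ± 0.16 (edgeR adjusted p = 0.277) without control replicate 2, so its sign came from 1 library. Without Malat1 and Neat1, the other 41 genes took 0.147% of counts in control replicate 2 and 0.124% to 0.159% elsewhere.

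**Figure D1:**
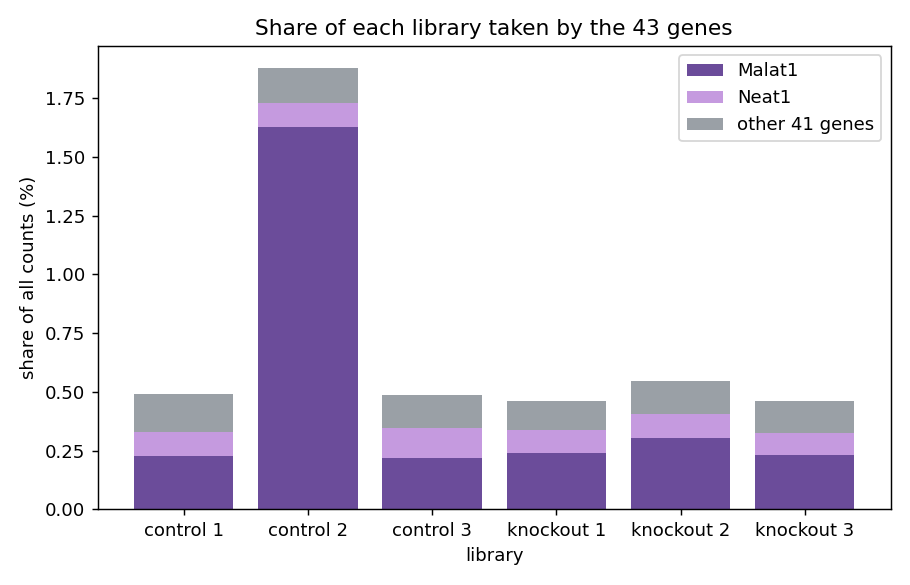
Share of all counts, in percent, taken by Malat1, Neat1 and the other 41 intergenic noncoding genes in each of the 6 libraries. Control replicate 2 reaches 1.88%, of which Malat1 is 1.63%, while the other libraries lie between 0.459% and 0.544%.

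Neat1, the RNA that scaffolds the nuclear paraspeckles (chromosome 19, 5824708 to 5845478), was the second most abundant gene by count. It had 972.2, 1192 and 1189 CPM in controls and 1025, 1021 and 932.2 CPM in knockouts, and the groups overlapped. Its log2 fold change was -0.17 ± 0.14 with a 95% interval of -0.49 to 0.14 (edgeR adjusted p = 0.493). Neat1 and Malat1 are neighbours, with no counterpart in Neat1 of the excess of Malat1 in control replicate 2, where Neat1 was 1.10 times the mean of the other controls. The mouse gene of NORAD, a cytoplasmic RNA that binds Pumilio proteins and is listed as 2900097C17Rik, had 238.2, 239.5 and 226.5 CPM in controls and 191.8, 214.7 and 206.8 CPM in knockouts. The groups did not overlap, but the gap was small (log2 fold change -0.20 ± 0.11, 95% interval -0.45 to 0.055, edgeR adjusted p = 0.324). Oip5os1, also known as Cyrano, which binds miR-7 and promotes its decay, had 154.8, 167.2 and 129.6 CPM in controls and 140.7, 146.5 and 137.2 CPM in knockouts. These values overlapped, with a log2 fold change of -0.087 and a 95% interval of -0.39 to 0.21 (edgeR adjusted p = 0.729).

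Carmn (chromosome 18, 61649625 to 61665537) had 190.5, 400.1 and 144.6 CPM in controls and 128.1, 211.9 and 144.9 CPM in knockouts. Control replicate 2 was 2.39 times the mean of the other controls, and the groups overlapped. The log2 fold change was -0.59 ± 0.40 (edgeR adjusted p = 0.421) with all libraries and -0.044 ± 0.246 (edgeR adjusted p = 0.932) without control replicate 2. Among the genes with a mean over 100 CPM, of which there were 5, Malat1 and Carmn varied most between libraries and Neat1, 2900097C17Rik and Oip5os1 least. Per gene length the order was different: the authors' FPKM averaged 546.5 for Malat1, 87.3 for Gm10076, 74.8 for Carmn, 52.4 for Snhg18, 50.9 for Gm26532, 41.8 for 2900097C17Rik and 41.3 for Neat1. In all, 29 of the 43 genes were at 10 FPKM or less, and 24 had a mean under 20 CPM.

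**Figure D2:**
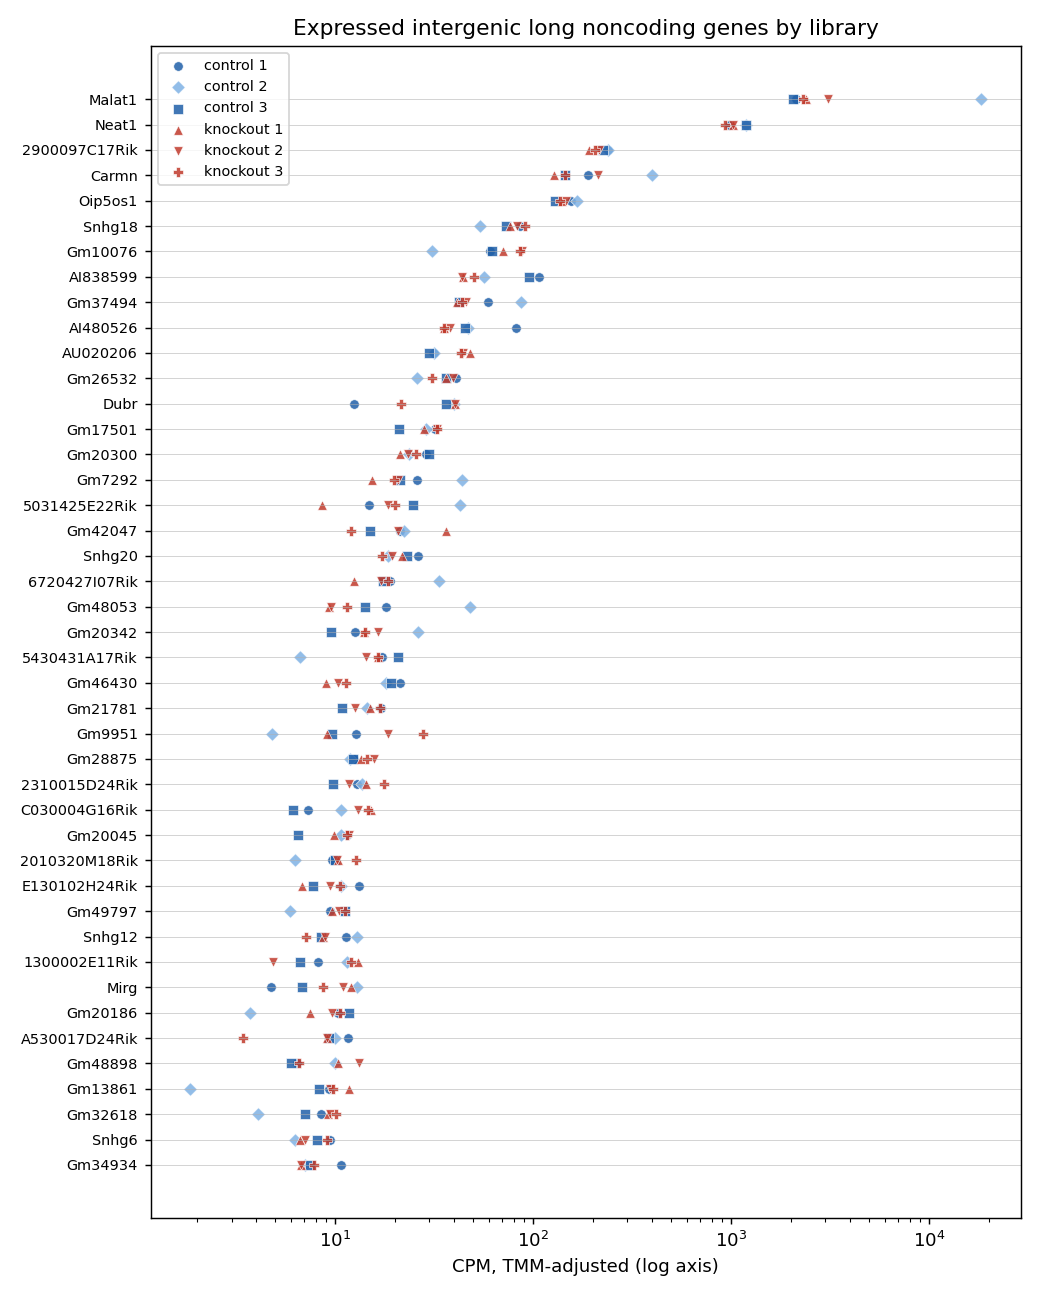
Expression of each of the 43 genes in every library, in CPM on a log axis, ordered by mean; blue marks are controls, with replicate 2 in light blue diamonds, and red marks are knockouts. Light blue diamonds lie far to the right for Malat1, Carmn and Gm48053 and far to the left for Gm13861 and Gm20186.

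Of the 43 genes, 2 passed the test between knockout and control, 1 higher and 1 lower, which is 4.65% of them against 3.45% of all 16139 genes tested (1.9% higher and 1.56% lower). All 43 had passed the filter on low counts. At an unadjusted p under 0.05 there were 8 (18.6%, against 22.7% of all genes tested), and the groups did not overlap for 14 genes, 7 higher and 7 lower (32.6%, against 31.8% of all genes tested). Log2 fold changes were positive for 22 genes and negative for 21, with a median of 0.016 against -0.013 for all genes tested. Protein-coding genes with 600 or more summed counts had 4.44% called and a median of 0.0026. The share of these noncoding genes that moved was therefore near the background in each of these counts.

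Gm46430 was the gene that fell (ENSMUSG00000113204; chromosome 13, 74579358 to 74617945, minus strand). It is a predicted gene of unknown function with 10 annotated transcripts. Controls had 21.2, 18.2 and 19.3 CPM and knockouts 9.02, 10.4 and 11.4 CPM. Every knockout library was under every control library, and control replicate 2 lay with the other controls. The mean went from 19.6 ± 1.56 to 10.3 ± 1.19 CPM (SD, n = 3), a log2 fold change of -0.94 ± 0.15 (edgeR adjusted p = 0.0314). AU020206 was the gene that rose (ENSMUSG00000097415; chromosome 7, 75769038 to 75782099, minus strand), also of unknown function. It had 31.8, 31.5 and 29.9 CPM in controls and 48.0, 44.2 and 43.3 CPM in knockouts. The controls lay within 2 CPM of each other and all knockouts were above them. The mean went from 31.0 ± 1.02 to 45.2 ± 2.48 CPM (SD, n = 3), a log2 fold change of 0.54 ± 0.11 (edgeR adjusted p = 0.046). Both calls held without control replicate 2 and were lost when any other single library was left out. The adjusted p over the 6 such fits ran from 0.0283 to 0.162 for Gm46430 and from 0.037 to 0.206 for AU020206 in edgeR, while the log2 fold changes stayed between -1.01 and -0.84 and between 0.51 and 0.58.

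The start regions of both called genes are shown, from 250 bases before to 50 after the RefSeq start on GRCm38.p6, since these are the members whose level differed between the groups. Capitals mark matches on either strand to the GC box GGGCGG, the TATA box TATAAA or the cyclic AMP response element TGACGTCA, which do not overlap one another here. AU020206 lies at chr7:75782071-75782370 and Gm46430 at chr13:74617272-74617571, both on the minus strand. The Gm46430 window lies inside the gene's deposited span, which begins at 74617945 on this strand, so it does not show the start of the counted gene model.
AU020206: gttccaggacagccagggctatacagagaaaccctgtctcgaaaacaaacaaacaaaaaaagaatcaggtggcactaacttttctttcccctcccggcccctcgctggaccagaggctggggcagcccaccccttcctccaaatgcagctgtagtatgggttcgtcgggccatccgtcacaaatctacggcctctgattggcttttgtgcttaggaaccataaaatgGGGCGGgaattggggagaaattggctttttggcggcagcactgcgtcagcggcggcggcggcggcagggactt
Gm46430: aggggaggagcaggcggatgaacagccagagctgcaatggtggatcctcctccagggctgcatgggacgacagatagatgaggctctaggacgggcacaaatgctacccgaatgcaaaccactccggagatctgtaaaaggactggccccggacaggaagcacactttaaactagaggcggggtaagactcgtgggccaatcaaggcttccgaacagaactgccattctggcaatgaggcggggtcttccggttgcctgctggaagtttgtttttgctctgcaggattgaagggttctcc
The AU020206 window held 1 GC box and 15 CG pairs, and the Gm46430 window held none of the 3 motifs and 11 CG pairs. The GC box was in 35.7% of all 32851 promoter windows of the table, the TATA box in 13.6% and the response element in 1.8%. Windows were listed for 20 of the 43 genes, 21 in all, and of these 9 held a GC box, 2 a TATA box and 1 the response element. Their median number of CG pairs was 15 against 7 over all windows. The member windows belong to genes chosen by summed counts, and some lie beside the start of a coding gene. The full set of windows was not matched to them on either.

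**Figure D3:**
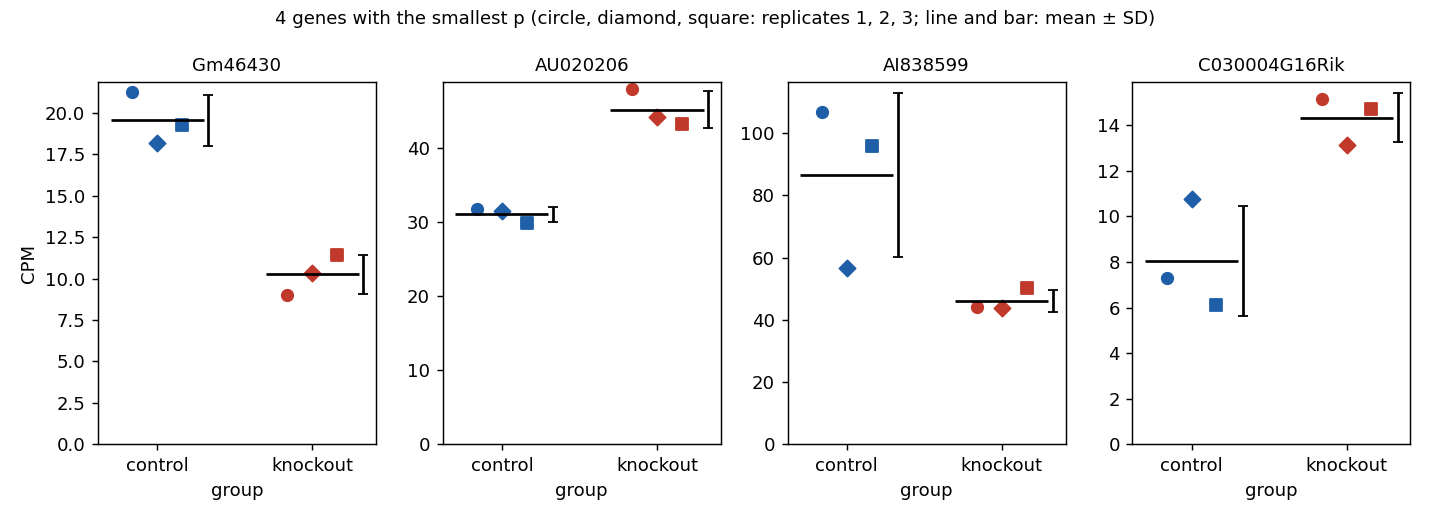
CPM in each library for the 4 genes with the smallest p, with axes starting at 0; lines are group means and bars are ± SD with n = 3. For Gm46430 and AU020206 the control values lie close together, while control replicate 2 (diamond) is the control nearest to the knockouts for AI838599, at 56.7 CPM, and for C030004G16Rik, at 10.8 CPM.

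AI838599 and C030004G16Rik came next, and for both the control replicate nearest to the knockouts was replicate 2. AI838599, a gene of unknown function (chromosome 4, 3242055 to 3258092), had 106.8, 56.7 and 96.0 CPM in controls and 44.2, 43.8 and 50.2 CPM in knockouts. The groups did not overlap, and the log2 fold change of -0.92 ± 0.22 was not called (edgeR adjusted p = 0.0672). C030004G16Rik (chromosome 18, 42615635 to 42622459), also of unknown function, had 7.29, 10.8 and 6.11 CPM in controls and 15.1, 13.1 and 14.7 CPM in knockouts, with a log2 fold change of 0.90 ± 0.22 (edgeR adjusted p = 0.0707). Without control replicate 2 both passed, with log2 fold changes of -1.13 ± 0.10 (edgeR adjusted p = 0.0127) and 1.10 ± 0.16 (edgeR adjusted p = 0.0261). That fit called 4 of the 43 genes, the others being Gm46430 and AU020206, or 9.3% against 5.51% of all genes tested in that fit (2 higher and 2 lower, with 2.97% and 2.54% of all genes).

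The remaining genes with an unadjusted p under 0.05 were AI480526, Gm48053, Gm10076 and Gm7292, and none of these was called (edgeR adjusted p from 0.14 to 0.206). AI480526 had 82.2, 46.7 and 45.4 CPM in controls and 35.4, 38.1 and 35.4 CPM in knockouts, so the size of its difference (log2 fold change -0.69 ± 0.23) came largely from control replicate 1. It was -0.35 without that library. Of its exonic bases, 66.6% are shared with other annotated genes, mainly the lincRNA 4932422M17Rik on the opposite strand. Whether counting used the strand is not known here, so reads of this pair may have been mixed. Gm48053 had 18.1, 47.8 and 14.1 CPM in controls and 9.27, 9.53 and 11.5 CPM in knockouts. Its log2 fold change went from -1.32 ± 0.45 to -0.67 ± 0.18 without control replicate 2 (edgeR adjusted p = 0.0769). The 2 genes that complete the 10 smallest p-values, Gm37494 (log2 fold change -0.51 ± 0.24) and Gm9951 (0.95 ± 0.45), had overlapping groups. Gm9951 rested on counts of 4.82 to 12.7 CPM in controls and 9.10, 18.6 and 27.9 CPM in knockouts, so its knockout libraries differed 3.06-fold among themselves. The other 33 genes had log2 fold changes from -1.53 (Malat1) to 0.54 (Gm13861) and adjusted p from 0.299 to 0.986 in edgeR.

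**Figure D4:**
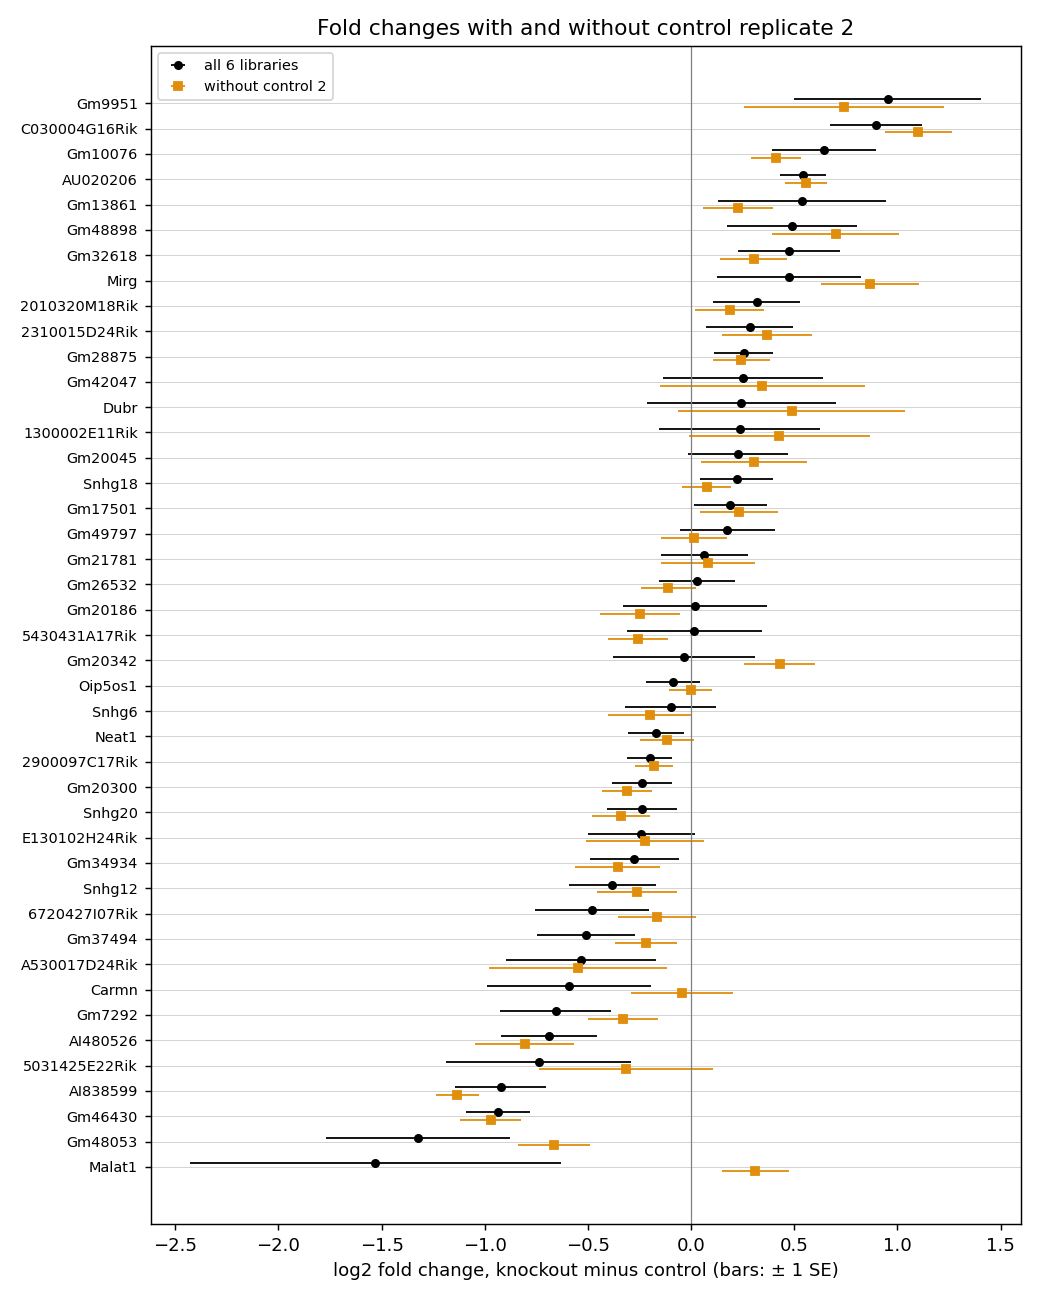
Log2 fold change of each of the 43 genes, knockout minus control, with ± 1 SE, from all 6 libraries (black) and without control replicate 2 (orange). Malat1 moves from -1.53 to 0.31 and Carmn from -0.59 to -0.044, while Gm46430 and AU020206 stay in place.

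Gm10076 and Gm7292 are near-identical to other genes in sequence. The Gm10076 transcript matched that of Rpl41, which encodes a very small protein of the large ribosomal subunit, at 99.5% identity over 383 bases, the whole of one transcript. The Rpl41 coding stretch is shown beside its counterpart in Gm10076 (gene at chr14:105681828-105682211, GRCm38, plus strand) because the 75 bases are the same, with 0 differences, and reads that lie within it cannot be assigned to one of the genes. The letters come from the GENCODE M21 transcripts and no part is in capitals.
Rpl41: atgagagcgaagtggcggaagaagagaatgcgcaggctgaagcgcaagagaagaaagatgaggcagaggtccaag
Gm10076: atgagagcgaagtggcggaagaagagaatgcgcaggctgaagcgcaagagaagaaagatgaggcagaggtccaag
Gm10076 had 60.8, 30.8 and 62.4 CPM in controls and 70.6, 87.6 and 86.4 CPM in knockouts (log2 fold change 0.64 ± 0.25). Rpl41 had 160.4, 84.2 and 163.2 CPM in controls and 239.1, 189.1 and 169.8 CPM in knockouts (0.54 ± 0.26, edgeR adjusted p = 0.267). Both were lowest in control replicate 2, and neither was called. Gm7292 matched 2900097C17Rik, the NORAD gene, at 99.2% over 2537 bases, all of one transcript. It had 25.9, 43.8 and 21.3 CPM in controls and 15.4, 20.7 and 19.9 CPM in knockouts, a log2 fold change of -0.66 ± 0.27 that was -0.33 ± 0.17 without control replicate 2. How reads with several places were counted is not given in the sources used here. Counts of these 2 pairs are therefore uncertain, as are those of other members with close matches elsewhere, Gm46430 among them. Over all 43 genes, 15 had a match of at least 95% identity over 100 bases to a transcript of a gene elsewhere, and for 4 such a match covered at least 80% of a transcript, the others being 2900097C17Rik, through a short transcript, and Gm20186. The called gene Gm46430 had such matches to 16 genes. The one with the largest share of a transcript covered 71.0% of it at 96.4% identity, to E430024I08Rik, another lincRNA on chromosome 13. The longest match was 778 bases, to D10Wsu102e, whose values are not given here. E430024I08Rik had 6.25, 10.8 and 5.89 CPM in controls and 1.45, 3.71 and 4.14 CPM in knockouts (log2 fold change -1.21 ± 0.42, edgeR adjusted p = 0.146). Gm49797, chosen after its values were seen, matched the protein-coding gene Cd2ap at 96.6% over 2015 bases, 64.2% of a transcript. Cd2ap had 7018 summed counts and Gm49797 had 805.

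None of the host genes of small RNAs among the 43 passed the test with all 6 libraries in edgeR. Of the listed small nucleolar RNA hosts, a class whose introns release guides mainly for ribosomal RNA modification, 4 were among the 43 genes. Snhg18, with Snord123 inside, had 86.4, 54.1 and 73.0 CPM in controls and 76.9, 82.6 and 91.2 CPM in knockouts (log2 fold change 0.22 ± 0.18, edgeR adjusted p = 0.496). Snhg20 (-0.24 ± 0.17), Snhg12 (-0.38 ± 0.21), which holds 5 annotated small nucleolar RNA genes, and Snhg6 (-0.098 ± 0.221), which holds Snord87, were also not called, with overlapping groups. Inside Snhg20 the annotation has no small nucleolar RNA gene, but 1 small Cajal body RNA gene, Gm26083, and 1 microRNA gene. On the wider list of small nucleolar RNA hosts of any gene type, 0 of 17 tested genes were called by edgeR, where 3.45% of all genes tested were, and 4 had an unadjusted p under 0.05, where 22.7% of all genes tested had. Its other members include Gas5 (log2 fold change -0.22), Snhg1 (-0.54), Snhg5 (-0.70) and Snhg3 (0.60), and the list had a median of -0.22.

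MicroRNA hosts among the 43 genes were Carmn and Mirg by the list. RefSeq hairpins inside their spans added 6720427I07Rik, E130102H24Rik and Snhg20, a choice made after the values were seen. No such hairpin lay inside the Carmn span, so Carmn was counted by the list alone. Gm26532 was not counted: it has 3 hairpins beside it on the same strand, Mir23a, Mir27a and Mir24-2, with 0 wholly inside its span. Mirg, an imprinted gene of chromosome 12 with 14 hairpins inside it, had 4.74, 13.0 and 6.83 CPM in controls and 12.0, 10.9 and 8.72 CPM in knockouts. Control replicate 2 was the highest library, and the log2 fold change was 0.47 ± 0.35 (edgeR adjusted p = 0.458), or 0.87 ± 0.24 without that library (edgeR adjusted p = 0.0823). 6720427I07Rik spans let-7a-1, let-7f-1 and let-7d on chromosome 13, and E130102H24Rik spans miR-101a on chromosome 4. Their mature sequences are shown with the seed, bases 2 to 8, in capitals, because the 3 let-7 forms whose hairpins lie inside 6720427I07Rik share the seed GAGGUAG.
let-7a-5p: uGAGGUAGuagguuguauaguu
let-7f-5p: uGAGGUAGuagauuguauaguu
let-7d-5p: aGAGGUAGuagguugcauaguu
miR-101a-3p: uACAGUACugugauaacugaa
6720427I07Rik had 18.9, 33.4 and 17.4 CPM in controls and 12.5, 17.1 and 18.5 CPM in knockouts, with overlapping groups and a log2 fold change of -0.48 ± 0.28 (-0.17 without control replicate 2). E130102H24Rik had 13.3, 10.8 and 7.78 CPM in controls and 6.81, 9.41 and 10.6 CPM in knockouts, also overlapping (-0.24 ± 0.26). The level of a host transcript is not the level of its mature microRNA, which was not measured here. On the list of microRNA hosts of any gene type, 1 of 9 tested genes was called, Mir100hg, which fell (-1.17 ± 0.22, edgeR adjusted p = 0.0411) and is listed as a processed transcript rather than a lincRNA. Of 16 tested genes on the list of noncoding genes studied in vessel or heart, 1 was called, Fendrr (-1.79 ± 0.37, edgeR adjusted p = 0.0482), a processed transcript with 98 counts in all. With 1 call each in lists of this length, against 3.45% of all genes tested, these counts say nothing about the lists as such.

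Among imprinted noncoding genes 0 of 8 tested were called by edgeR, where 3.45% of all genes tested were. Of the 8, only 1, Snhg14, had an unadjusted p under 0.05, where 22.7% of all genes tested had. H19 (log2 fold change 1.31 ± 0.87) and Meg3 (0.76 ± 0.62), lincRNAs with 242 and 460 counts, were under the threshold on summed counts. The list of nuclear-retained RNAs also holds 2900097C17Rik, which is cytoplasmic and so goes against the list's name. Of its 7 tested genes, 0 were called by edgeR and 0 had an unadjusted p under 0.05, against 3.45% and 22.7% of all genes tested. In lists of this length such counts say nothing about the lists as such. The 7 genes had 6 negative and 1 positive log2 fold changes, with a median of -0.66. Of these, Malat1 was positive without control replicate 2.

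Control replicate 2 moved the members in both directions. Relative to the mean of control replicates 1 and 3, it was over 1.5 times higher for 13 genes, under 1/1.5 for 9 and between these for 21. It was the highest of the 6 libraries for 13 genes (30.2%, against 27.8% of all genes tested) and the lowest for 12 (27.9%, against 32.7%). After Malat1 the highest ratios were those of Gm48053 (2.97), Carmn (2.39), Gm20342 (2.37), Mirg (2.24) and 5031425E22Rik (2.16). The lowest were those of Gm13861 (0.21), Gm20186 (0.33), 5430431A17Rik (0.35) and Gm9951 (0.43), which had 5 to 18 counts there. Leaving that library out lowered the standard error for 32 of the 43 genes and turned the sign of 5, Malat1, Gm26532, Gm20342, 5430431A17Rik and Gm20186, none of which was called with it or without it. Genes named by their ratio were chosen after their values were seen.

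Some members varied widely within a group also among the 5 libraries other than control replicate 2. Dubr and Gm42047 were chosen after their values were seen. Dubr, a noncoding gene studied in muscle cells, had 12.5, 39.7 and 36.2 CPM in controls and 40.5, 40.2 and 21.6 CPM in knockouts, so that control replicate 1 and knockout replicate 3 were the low libraries. Gm42047 had 21.2, 22.2 and 14.98 CPM in controls and 36.2, 20.8 and 12.1 CPM in knockouts, with the highest and the lowest library both in the knockout group. A530017D24Rik had 11.7, 10.01 and 9.30 CPM in controls and 9.10, 9.06 and 3.44 CPM in knockouts. The groups did not overlap, but the size of the difference (log2 fold change -0.53 ± 0.36) came largely from knockout replicate 3, and without it the value was -0.19. The median standard error of the log2 fold change was 0.24 for the 43 genes, and 0.16 for protein-coding genes with 600 or more summed counts. Without control replicate 2 these were 0.17 and 0.13. The classes share that minimum and were not matched on level.

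The genes were placed in the GENCODE M21 annotation of GRCm38, where all 43 had the positions of the deposited table. They lay on 18 chromosomes, 11 had a single exon in every transcript, and their exonic length ran from 384 to 20771 bases. Despite the intergenic label, 23 spans overlapped another annotated gene and 17 shared exonic bases with one, 2 of them, AI480526 and Gm20186, over 50% of these bases. The nearest protein-coding gene overlapped the span of 5 genes and was at most 1000 bases away for a further 8. For 7 genes it started within 1000 bases in the opposite direction, a head-to-head arrangement: Snhg18 with Sema5a, AI480526 with Setd1b, Gm17501 with Ccn1, 5031425E22Rik with Kmt2e, 2010320M18Rik with Pik3r2, Gm20186 with Lsm8 and Gm34934 with Samd4.

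Fold changes of the nearest protein-coding genes showed no common direction with those of the noncoding genes. Of the 43, 35 had a neighbour that was tested, and the log2 fold changes had the same sign in 13 and opposite signs in 22. The values come from the same 6 libraries, Sema5a is the neighbour of 2 members, and across these 35 pairs of genes, which are not independent replicates, Pearson's r was -0.21 and Spearman's rho -0.27, given as a description. The neighbours of the called genes were not called: Erap1, 21623 bases from Gm46430, had a log2 fold change of -0.017 ± 0.104 (edgeR adjusted p = 0.946), and Akap13, 14429 bases from AU020206, had -0.068 ± 0.209 (edgeR adjusted p = 0.88). Of the neighbours of the next 8 genes by p, Vmn1r3 and Ppp2r2b were not tested, and Setd1b, Gja1, Spry2, Zfp637, Zfp619 and Dctn6 were not called (edgeR adjusted p from 0.213 to 0.9749). Over the 35 pairs, 2 neighbours were called, Pik3r2 and Ak4, and 13 of 35 had an unadjusted p under 0.05. Both are larger shares than the 3.45% and 22.7% of all genes tested. These differences in share were not tested. The pairs that follow were chosen after their values were seen. Pik3r2, a regulatory subunit of phosphoinositide 3-kinase, rose by 0.75 ± 0.13 on the log2 scale (edgeR adjusted p = 0.0321), with means of 72.1 ± 6.28 and 121.9 ± 11.6 CPM (SD, n = 3). Its head-to-head partner 2010320M18Rik, 102 bases away, had 9.62, 6.30 and 10.03 CPM in controls and 10.4, 10.2 and 12.8 CPM in knockouts (0.32 ± 0.21, edgeR adjusted p = 0.411). Ak4, a mitochondrial adenylate kinase 62542 bases from E130102H24Rik, rose from 6.01 ± 1.71 to 13.4 ± 0.393 CPM (1.09 ± 0.21, edgeR adjusted p = 0.043). Ccn1, which encodes a secreted matrix protein, had 352.6, 556.2 and 667.1 CPM in controls and 119.0, 243.5 and 119.6 CPM in knockouts (-1.71 ± 0.36, edgeR adjusted p = 0.0532). Gm17501, which starts 331 bases from it in the other direction, had 32.1, 28.9 and 21.2 CPM in controls and 27.99, 32.8 and 32.6 CPM in knockouts (0.19 ± 0.18, edgeR adjusted p = 0.565). Whether a pair's fold changes differ from each other was not tested.

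**Figure D5:**
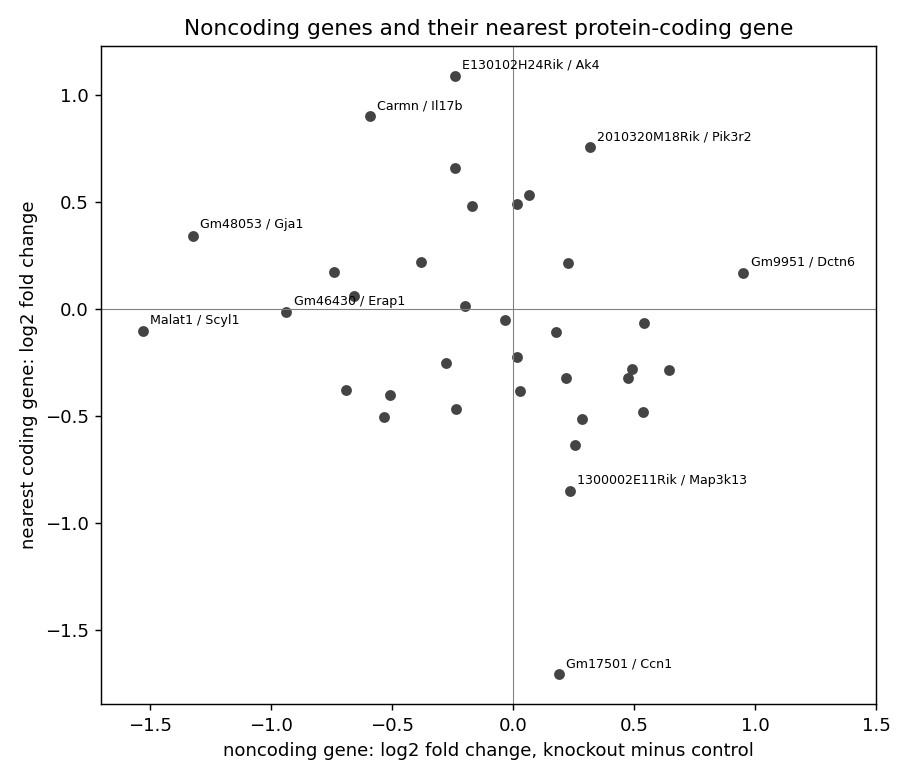
Log2 fold change, knockout minus control, of each noncoding gene (horizontal) and of its nearest protein-coding gene (vertical), for the 35 pairs whose neighbour was tested; pairs with a large value are named as noncoding gene / coding gene. Points lie on all sides of both zero lines, 13 with the same sign and 22 with opposite signs, and Ccn1 at -1.71 stands beside Gm17501 at 0.19.

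Of the lincRNAs under the threshold, 206 were tested. Of these, 2 were called (0.971%, against 3.45% of all genes tested) and 31 had an unadjusted p under 0.05 (15%, against 22.7%). Their log2 fold changes were positive for 82 and negative for 124, against 7859 and 8280 of all genes tested. The median was -0.15, against -0.0125 for all genes tested, with a median standard error of 0.44. Control replicate 2 was the highest library for 41.3% of them, against 27.8% of all genes tested. In the fit without that library, the median over the lincRNAs under the threshold was -0.063. Just short of the threshold, 9230112J17Rik had 10.04, 10.8 and 8.51 CPM in controls and 5.61, 5.47 and 6.22 CPM in knockouts. Its neighbour in the ranking, 4933404O12Rik, had 12.3, 8.53 and 8.51 CPM in controls and 3.66, 4.23 and 6.05 CPM in knockouts. Neither of these was called (edgeR adjusted p = 0.0688 and 0.0691), and both had groups that did not overlap. Among genes with 600 or more summed counts, 3 of 33 antisense genes (9.09%) and 3 of 40 processed transcripts (7.5%) were called, against 3.45% of all genes tested. Differences between these classes were not tested.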

How the data were processed

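RNA from whole aorta was sequenced in 6 libraries, 3 per group, grouped by the sample titles. Counts per gene and FPKM (fragments scaled to gene length and depth) are as the authors deposited them, per the file headers. The submitters' processing notes name CASAVA 1.8, HISAT2, SAMtools 1.3.1 and edgeR; how reads were counted, and whether by strand, was not given in the sources used here. The notes name GRCm39, yet 54821 of 55141 shared gene identifiers (99.4%) have the positions of GENCODE M21 on GRCm38, which is used here.

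Genes kept by filterByExpr (16139) were fitted with edgeR 4.0.16 in R 4.3.3 (TMM scaling, glmQLFit and glmQLFTest, robust). P-values were adjusted by Benjamini-Hochberg over all of them, with a threshold of 0.05. CPM use TMM-adjusted library sizes, and log2 fold changes are knockout minus control. Transcripts were compared with BLAST 2.17.0. The fit was tested on simulated counts. Alternatives were DESeq2 1.42.0, limma 3.58.1 (voom with quality weights), other scalings, filters and thresholds, and leaving out each library.

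Members and lists were chosen with earlier results of these data known. Genes are named by rule: called members, the 10 smallest p-values, the 10 most abundant, list members, those beside the threshold, and the nearest coding genes of the first 2 of these. Others are said to have been chosen after their values were seen.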

Additional observations from a re-analysis of the deposited data

How the results depend on the processing

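The number of lincRNA members called was 2 (1 higher, 1 lower) and of all genes 557. DESeq2 called 5 members (2 higher, 3 lower) and 1501 genes, and limma voom with quality weights 5 (3 higher, 2 lower) and 1918. With no filter on low counts 1 member was called, 0 higher and 1 lower. With a summed count of 300 or more, 2 were called higher and 1 lower among 80 genes; with 1200 or more, 1 was called, 0 lower, among 22. Leaving out 1 library gave 0 to 4 members called, 0 to 2 higher, 0 to 2 lower, and 7 to 911 genes; the 4 came without control replicate 2, and each of the other 5 fits gave 0. RLE size factors, scaling on protein-coding genes, robust estimation off, and a mean of at least 8 CPM in place of the sum each gave 2 members.

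A fit with the replicate number as a block called 0 members, 0 higher and 0 lower, and 28 genes. Same-numbered libraries' deviations from the group means correlated at 0.0503, 0.0988 and -0.0636, so the numbers were not taken to pair the samples.

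Malat1 ran from -1.97 to 0.31 on the log2 scale, positive only without control replicate 2, and Snhg6, at -0.098 in all libraries, ran from -0.25 to 0.037 over the fits that left out 1 library. AI838599 and C030004G16Rik were called by DESeq2 (adjusted p = 0.00401 and 0.0122) and limma (0.00909 and 0.012), Gm48053 by DESeq2 (0.0195) and Mirg by limma (0.0445). Causes of these changes were not tested. The depth of control replicate 2, in which 21 members had under 50 counts, limits all fold changes of low genes.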
